A study of Mus musculus with 6 samples.

Results

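The 10 genes described here are imprinted genes of the mouse, that is, genes read mainly from the copy inherited from 1 parent. They are Peg3, Ndn, Mest, Dlk1, Plagl1, Sgce, Snrpn and Impact, which are expressed from the paternal copy, and H19 and Cdkn1c, which are expressed from the maternal copy. They were measured on oligonucleotide arrays in superficial masseter, a jaw-closing muscle, and in tibialis anterior, a limb muscle, of normal female C57Bl/6 mice aged 6 months, with 3 samples a muscle and 1 array a sample. No group carried a transgene or a treatment, and the question of the comparison was which transcripts differ between a masticatory and a limb muscle. A probe set, a group of short probes for 1 transcript, counted as a member when the platform annotation gave it a single gene symbol and that symbol was on the list. This found 19 of the 22690 probe sets, for 9 of the 10 genes. The only probe set that lists H19 also lists a second gene, so H19 has no value here. The genes were chosen by the difference between the 2 muscles on these same arrays, with Peg3 and Ndn in the lead, so their differences are given as a description and no p-value is printed for them.

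Imprinting is set by DNA methylation laid down in the germ line, which leaves 1 parental copy of each gene silent in the offspring. Many imprinted genes act on growth before birth, are strongly expressed in embryonic muscle and connective tissue and are turned down after birth. Peg3 and Plagl1 encode zinc-finger proteins, Ndn encodes necdin, a protein of the MAGE family linked to the end of cell division and to myoblast differentiation, and Cdkn1c encodes p57, an inhibitor of cyclin-dependent kinases. In adult muscle, Peg3 protein (also called PW1) is known from satellite cells and from cells of the interstitium. An array signal does not say which parental copy a transcript came from, so imprinting itself was not measured.

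Of the 10 genes, 5 lie on chromosome 7, namely Peg3, Ndn, H19, Cdkn1c and Snrpn. RefSeq start-site windows of 300 bases (build GRCm38.p6) were examined for 6 of the 10 members. None was at hand for H19, Cdkn1c and Sgce, and Impact was left out of this search. The windows of Peg3 and Ndn are shown because these genes differed in opposite directions, and because CpG dinucleotides, printed in capitals, are the bases that imprinting methylates. The Peg3 window lies at chr7:6730370-6730669 on the minus strand and the Ndn window at chr7:62348027-62348326 on the plus strand.
Peg3: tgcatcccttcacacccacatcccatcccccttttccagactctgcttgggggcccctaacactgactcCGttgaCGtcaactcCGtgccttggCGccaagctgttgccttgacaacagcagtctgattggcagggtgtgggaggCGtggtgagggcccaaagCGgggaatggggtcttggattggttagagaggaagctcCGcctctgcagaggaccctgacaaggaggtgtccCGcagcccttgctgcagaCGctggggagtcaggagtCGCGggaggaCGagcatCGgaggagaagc
Ndn: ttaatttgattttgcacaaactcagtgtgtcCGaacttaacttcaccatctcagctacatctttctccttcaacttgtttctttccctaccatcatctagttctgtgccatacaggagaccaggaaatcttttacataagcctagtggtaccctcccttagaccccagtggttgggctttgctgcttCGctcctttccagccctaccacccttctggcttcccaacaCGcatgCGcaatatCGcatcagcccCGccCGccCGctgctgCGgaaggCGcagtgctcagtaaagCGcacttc

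The Peg3 window holds 13 CpG and the Ndn window 11, against a median of 7 over the 32851 windows of the table. Among the other members examined, the Plagl1 window holds 26 CpG, the 3 windows of Mest 8, 17 and 17, the Dlk1 window 9, and the 4 windows of Snrpn between 2 and 7. The Peg3 window shares 263 bases with that of Usp29, its neighbour on the opposite strand. Besides CpG, 3 motifs were searched on both strands, after the sequences had been read. The cAMP response element (CRE, TGACGTCA) is present once in the Peg3 window, where it contains 1 of the CpG, and in 1.79% of all windows. The CCAAT box (CCAAT) is present at 2 places in the Peg3 window and in 37.4% of all windows. The E-box (CANNTG) is in neither window and in 72.3% of all windows, and the Ndn window has neither a CRE nor a CCAAT box.

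The deposited values were linear signal intensities on a common scale, since the 2% trimmed mean was 150.1 for all arrays. A difference is the log2 masseter signal less that of tibialis anterior, given with the standard error (SE) of a limma fit over all probe sets kept, and muscle levels are geometric means of 3 arrays. Probe sets whose mean log2 signal over the 6 arrays was under 4.84, the 40th percentile and equal to a signal of 28.6, were left out. Of the 19 member probe sets, 13 were kept, for 8 genes. Markers of skeletal muscle fibres were bright on every array, with mean log2 signals of 13.54 to 13.99. Salivary gland markers differed among samples of 1 muscle, with mean log2 signals of 11.75, 8.47 and 6.62 in the masseter (samples 1, 2 and 3, the order used throughout) and of 7.60, 6.52 and 5.69 in the limb muscle. Of the 7 markers on this list, 6 had a higher mean in the masseter. Smr2 was lower there, with means of 1365 and 2134, and its masseter signals rose in sample order, at 1010.4, 1185.4 and 2123.3. The Gapdh control's ratio of 3' to 5' signal, a sign of RNA and labelling quality, averaged 2.66 ± 0.23 for masseter and 1.94 ± 0.11 for tibialis anterior (SD over 3 arrays each). The exact two-sided permutation test gave p = 0.1, the least possible with 3 against 3. For Actb the ratio averaged 2.96 ± 0.34 and 2.70 ± 0.11, where the exact permutation test gave p = 0.3. Their part in the differences below was not tested.

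The imprinted genes did not move together. Peg3 was lower in the masseter, Ndn was higher there, and the other 6 genes with a kept probe set differed by less than 1 on the log2 scale. Of the 13 kept probe sets, 5 were past an adjusted p of 0.05 in the fit over all probe sets, 2 of Peg3 on the lower side and 3 of Ndn on the higher side. Over all 13576 probe sets kept, 1.18% were past that threshold, 0.56% higher and 0.619% lower in the masseter. Since the genes were chosen on this contrast, nothing is read from their share. The member count was 3 without the pairing of the numbered samples, 3 by paired SAM, the method named in the series' design, and 1 with eBayes without its intensity trend. It was 4, 1 and 1 without masseter 1, 2 and 3, and 1, 2 and 1 without tibialis anterior 1, 2 and 3, in fits that do not pair the samples.

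The median difference of the 13 kept member probe sets was 0.60, against 0.02 over all probe sets kept, and 5 of the 13 are of Ndn. Taking only the brightest probe set of each of the 8 genes, the median was 0.33. The 3 arrays of 1 muscle all lay above the 3 of the other for 8 of the 13, of which 6 were higher and 2 lower in the masseter. Such a separation held for 17.8% of all probe sets kept. Of the 8, 5 were of Ndn and 2 of Peg3, the genes that led the choice on this contrast. Nothing is therefore read from this share or from the medians. Peg3 1417355_at was kept through its tibialis anterior signals, since its masseter mean was under the filter level.

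**Figure D1:**
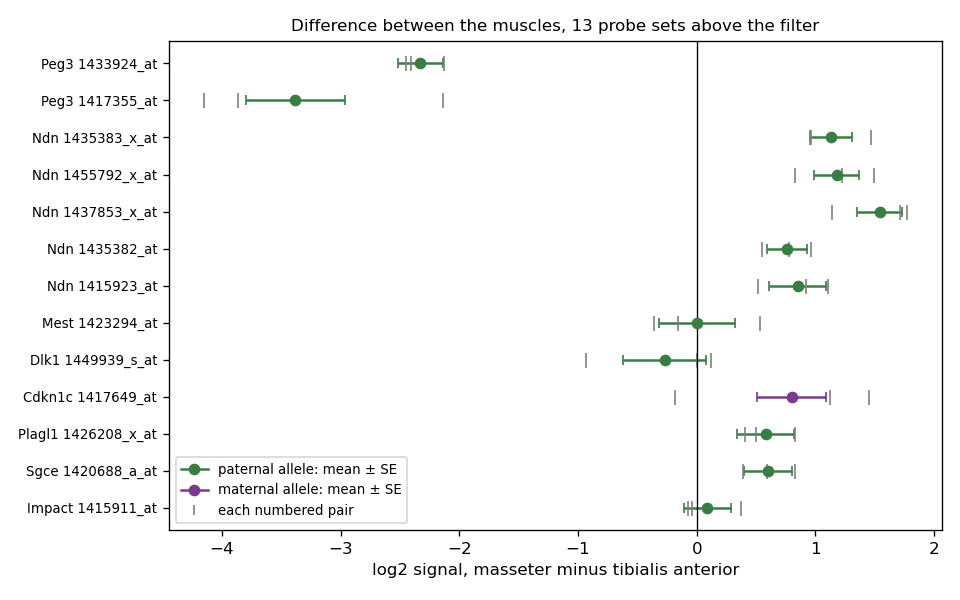
Log2 signal, masseter minus tibialis anterior (x axis), for the 13 kept probe sets (y axis), with circles for the mean, bars for ± 1 SE and grey ticks for the 3 numbered pairs. The 2 probe sets of Peg3 lie left of 0 and the 5 of Ndn right of 0 in every pair, while Mest, Dlk1 and Impact lie around 0.

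Peg3 was read by 3 probe sets, and all 3 were lower on each masseter array than on any tibialis anterior array. Probe set 1433924_at had signals of 71.7, 52.9 and 50.0 in the masseter and of 380.2, 289.6 and 219.3 in the limb muscle. The lowest tibialis anterior array thus stood well above the highest masseter array. The mean levels were 57.5 and 289, a difference of -2.33 ± 0.19 (SE, n = 3 a muscle), or 5.03-fold. The 3 numbered pairs gave -2.41, -2.45 and -2.13.

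The second probe set of Peg3, 1417355_at, was near background in 2 of the 3 masseter samples. Its signals were 50.8, 10.4 and 6.6 in the masseter and 223.4, 151.5 and 117.0 in the limb muscle. The masseter mean of 15.2 was under the filter level, so against that level the tibialis anterior mean of 158 was at least 5.53-fold higher. The fitted difference was -3.38 ± 0.42. It rested in part on the dim arrays, since it was -2.36 when 16 was added to every signal before taking logarithms and -4.26 without masseter 1. The third probe set, 1417356_at, was not kept, with signals of 1.7 to 2.3 in the masseter and of 4.1 to 11.5 in the tibialis anterior. Its groups do not overlap either, but every array lies under the filter level and no fold is given.

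In whole muscle, fewer cells of a type and less RNA per cell cannot be told apart. The satellite cell markers, set beside Peg3 because its protein is known from these cells, had mean log2 signals of 5.60 to 5.80 in the masseter and of 5.51 to 5.97 in the tibialis anterior. Of the 7 of 8 listed that were measured, 4 were kept and 0 were past the threshold in either direction, while 3 had a higher mean in the masseter. Itga7, which was kept, was lower in the masseter without overlap, with means of 114 and 177 (-0.63 ± 0.23, limma adjusted p = 0.288). Pax7 and Myf5, which define satellite cells, were under the filter level, with means of 20.0 and 23.8 for Pax7 and of 21.5 and 19.3 for Myf5 in masseter and tibialis anterior. Neither gene can therefore be used to gauge satellite cells on these arrays. For the interstitium, 6 of the 9 connective tissue markers given below had a higher mean in the masseter, opposite to Peg3. The part of either marker list in the Peg3 difference was not tested.

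**Figure D2:**
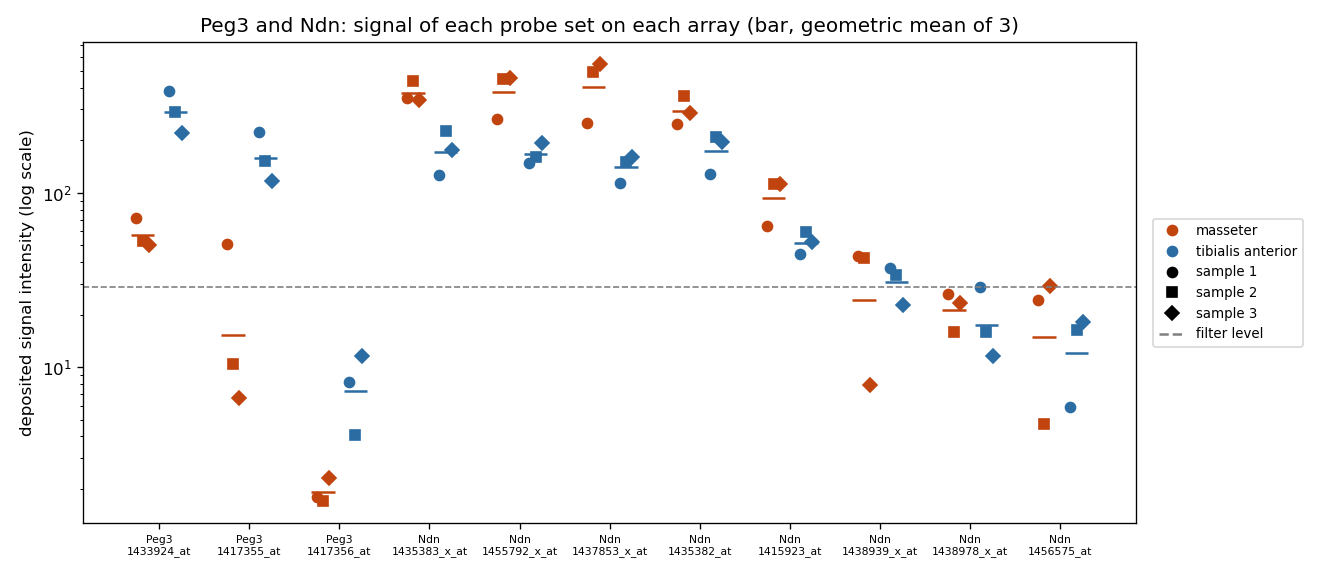
Deposited signal intensity (log axis) of the 3 probe sets of Peg3 and the 8 of Ndn on each array, with masseter in orange, tibialis anterior in blue, a marker shape for each sample number, horizontal bars for the geometric mean of 3 and a dashed line at the filter level of 28.6. Peg3 is lower and the 5 brighter probe sets of Ndn are higher in the masseter without overlap, and the 3 dim probe sets of Ndn overlap.

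Ndn was higher in the masseter by every one of its 5 kept probe sets, with differences of 0.76 to 1.54 and a median of 1.13. The greatest was that of 1437853_x_at, with signals of 250.7, 488.9 and 544.8 in the masseter and of 114.1, 149.5 and 159.8 in the limb muscle. Every masseter array was above every tibialis anterior array, and the numbered pairs gave 1.14, 1.71 and 1.77. The mean levels were 406 and 140, a difference of 1.54 ± 0.19, or 2.90-fold.

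Probe set 1455792_x_at of Ndn had signals of 262.8, 447.7 and 452.2 in the masseter and of 148.3, 159.1 and 193.6 in the limb muscle, a difference of 1.18 ± 0.19. Probe set 1435383_x_at had signals of 350.0, 434.5 and 340.1 and of 126.7, 224.5 and 174.7, a difference of 1.13 ± 0.18. In both, the muscles did not overlap, and the masseter sample with the lowest signal differed, sample 1 in the former and sample 3 in the latter. These 3 probe sets were the ones past the threshold, and all 3 end in x_at, the array maker's mark for probes that may also bind other transcripts.

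The 2 kept Ndn probe sets without that mark had smaller differences and were not past the threshold. Probe set 1435382_at had signals of 248.5, 358.2 and 286.3 in the masseter and of 127.9, 208.8 and 195.8 in the limb muscle, a difference of 0.76 ± 0.17. Probe set 1415923_at had signals of 64.0, 112.4 and 112.1 and of 44.7, 59.4 and 52.1, a difference of 0.85 ± 0.24. The muscles did not overlap in either, so the direction was the same in all 5, while whether the x_at sets differ more was not tested. The other 3 probe sets of Ndn were not kept, with differences of -0.33, 0.29 and 0.31 and signals that overlapped.

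Some markers of connective tissue and fat were also higher in the masseter. Of the 9 of 10 connective tissue markers measured, all 9 were kept and 2 passed the threshold, both higher, Dpt, a matrix protein, at 1.19 (limma adjusted p = 0.0267) and Cd34 at 0.99 (adjusted p = 0.0427). Of the 9, 6 had a higher mean in the masseter and 3 a lower one, Col1a1 at -1.26, Col3a1 at -0.16 and Mfap5 at -0.13. The list's mean log2 signals overlapped, at 7.64, 7.83 and 7.30 in the masseter and 7.25, 7.41 and 7.26 in the limb muscle, while its summed signal ran from 2336 to 2996 and from 1984 to 2126. Pdgfra, the receptor that marks fibro-adipogenic progenitors, had means of 232 and 134 (adjusted p = 0.118), and the collagen Col1a1, opposite to Ndn and without overlap, had 50.1 and 120 (adjusted p = 0.2). Of the 5 of 7 adipocyte markers measured, all 5 had a higher mean in the masseter, 4 were kept and 1 passed the threshold, the adipokine gene Adipoq at 1.26 (adjusted p = 0.0167), with Lep under the filter level. The adipocyte list's mean log2 signals were 7.80, 6.78 and 7.28 in the masseter and 7.11, 6.24 and 6.04 in the limb muscle, and its summed signal ran from 4191 to 6036 and from 3009 to 5018. The nerve and Schwann cell list, with 4 of 6 measured, did not overlap between the muscles, with mean log2 signals of 7.14, 7.50 and 7.08 in the masseter and 6.97, 6.54 and 6.88 in the limb muscle. Its summed signal ran from 972 to 1092 and from 597 to 729, and 0 of its 4 markers passed the threshold. Of these 4, 3 had a higher mean in the masseter. The myelin genes Mbp, at 0.80 (adjusted p = 0.0886), and Pmp22, at 0.61 (adjusted p = 0.146), separated the muscles, as did 17.8% of all probe sets kept. S100b, at 0.57, and Sox10, at -0.20 and so lower in the masseter, overlapped between the muscles. None of the markers was at a signal of 0, and their part in the Ndn difference was not tested.

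Cdkn1c, the maternally expressed member with a value, had signals of 196.7, 359.8 and 417.5 in the masseter and of 222.1, 165.2 and 152.8 in the limb muscle. Masseter 1 lay under tibialis anterior 1, so the muscles overlapped, while masseter 2 and 3 lay above all 3 limb samples. The difference was 0.80 ± 0.29 (95% interval 0.13 to 1.47). The interval allows neither for the number of probe sets nor for the choice of the genes on this contrast. The difference was not past the threshold. It passed without the samples numbered 1, where it was 1.29, and was 0.47 without those numbered 3. Masseter 1 is also the sample with the highest salivary signal, as given above. It was the lowest masseter sample in the kept Ndn probe sets too, except 1435383_x_at. In the tibialis anterior, Cdkn1c instead fell from sample 1 to sample 3, as the salivary signal did. Tibialis anterior 1 was the lowest limb sample in every kept Ndn probe set. Both kept Peg3 probe sets fell from sample 1 to sample 3 in each muscle, the order of the salivary signal. The part of the salivary signal in the Cdkn1c, Ndn and Peg3 values was not tested.

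Sgce encodes epsilon-sarcoglycan, a membrane protein related to the sarcoglycans of the dystrophin complex. Its probe set 1420688_a_at had signals of 155.9, 150.9 and 132.1 in the masseter and of 103.6, 85.1 and 100.6 in the tibialis anterior. The muscles did not overlap, and the difference was 0.60 ± 0.20 (95% interval 0.15 to 1.05), or 1.52-fold, not past the threshold. This interval, too, allows neither for the number of probe sets nor for the choice of the genes. Peg10, a gene of retrotransposon origin that lies next to Sgce, was under the filter level.

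Plagl1, also called Zac1, encodes a zinc-finger transcription factor known to act on other imprinted genes. Its kept probe set, 1426208_x_at, had signals of 92.1, 148.0 and 39.2 in the masseter and of 65.3, 83.4 and 29.6 in the limb muscle. The masseter was the higher in each numbered pair, by 0.50, 0.83 and 0.41, but the samples of a muscle spread more than the muscles differed. In both muscles sample 2 was the highest and sample 3 the lowest. The difference was 0.58 ± 0.24 with the pairing. In unpaired fits it was 0.143 without masseter 2, 1.101 without masseter 3 and 0.137 without tibialis anterior 3. The other probe set of Plagl1 was near background, at 1.4 to 4.1 on all arrays.

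The remaining members differed between the muscles by less than 1 SE or were too dim to compare. Mest, which encodes a protein with a hydrolase-type fold and is strong in fetal mesoderm, had signals of 44.1, 45.6 and 60.7 in the masseter and of 56.5, 51.1 and 41.9 in the tibialis anterior. The ranges overlapped and the difference was 0.00 ± 0.32, with a 95% interval of -0.72 to 0.73. Dlk1, a transmembrane protein of the Notch ligand family that acts in muscle and fat development, had 31.9, 46.2 and 47.5 and 60.8, 46.3 and 43.6. Its difference was -0.27 ± 0.35 (95% interval -1.06 to 0.52), with sample 1 the lowest in the masseter and the highest in the tibialis anterior.

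Impact, an inhibitor of the stress kinase GCN2, had signals of 131.7, 117.0 and 96.2 in the masseter and of 135.2, 122.7 and 74.5 in the tibialis anterior. Its difference of 0.09 ± 0.20 has a 95% interval of -0.38 to 0.55, and in both muscles sample 3 was the lowest. Intervals of this width do not show that the muscles are alike. The single-symbol probe set of Snrpn, which encodes a small nuclear ribonucleoprotein of the Prader-Willi region, had signals of 3.1 to 10.4 and was not kept. A further 4 probe sets list Snrpn together with another gene and are not analysed here.

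**Figure D3:**
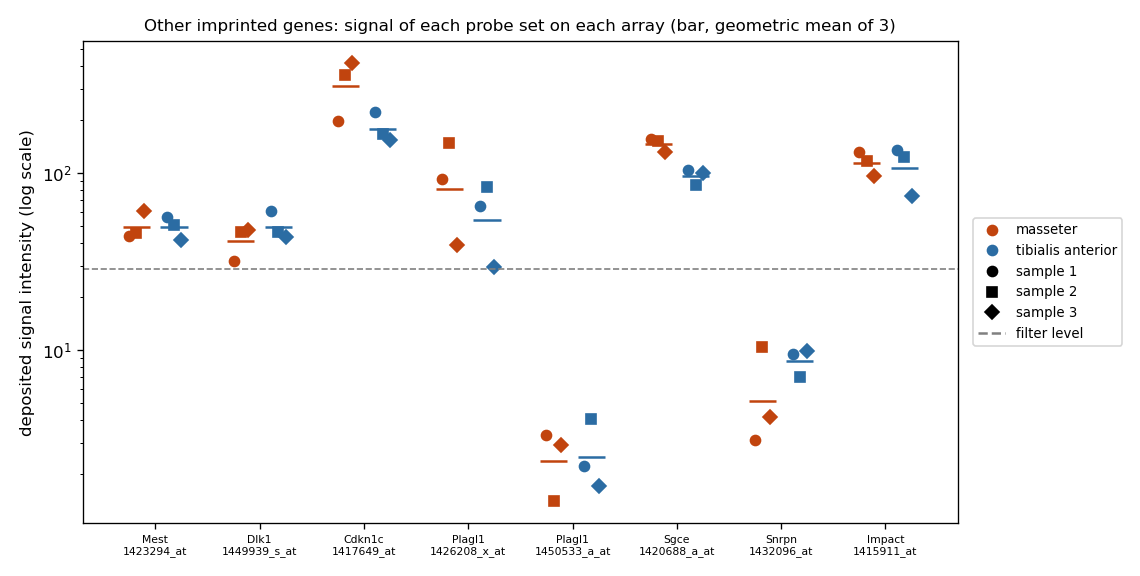
Deposited signal intensity (log axis) of the probe sets of the other 7 genes on each array, drawn as for Peg3 and Ndn, with the filter level of 28.6 dashed. Sgce is higher on all 3 masseter arrays, Cdkn1c on masseter 2 and 3, and in Plagl1 1426208_x_at the sample numbers keep the same order in both muscles.

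By expressed copy, the members give 7 paternally expressed genes with a kept probe set against 1 maternally expressed gene, so the classes could not be compared within the members. On brightest probe sets the 7 paternal genes ran from -2.33 for Peg3 to 1.13 for Ndn, with a median of 0.09. In this class 4 had a higher and 2 a lower mean in the masseter, with Mest at 0.00. Opposite directions were thus found within the paternal class, and Cdkn1c, at 0.80, lies inside its range.

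A wider list of 52 imprinted genes, some imprinted only in certain tissues or stages, was set beside the members. Of these, 37 had a single-symbol probe set and 22 were kept, and on brightest probe sets 0 of the 22 were past the threshold in the limma fit, with 4 (18.2%) at an unadjusted p under 0.05, against 13.1% of all probe sets kept. Their means were higher in the masseter for 14 and lower for 8, from -0.66 to 0.86, with a median of 0.16. The 15 maternally expressed genes had a median of 0.21 and 12 higher means, and the 6 paternally expressed genes a median of -0.08 and 2 higher means. This is a description of unequal lists, and the difference between the classes was not tested.

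**Figure D4:**
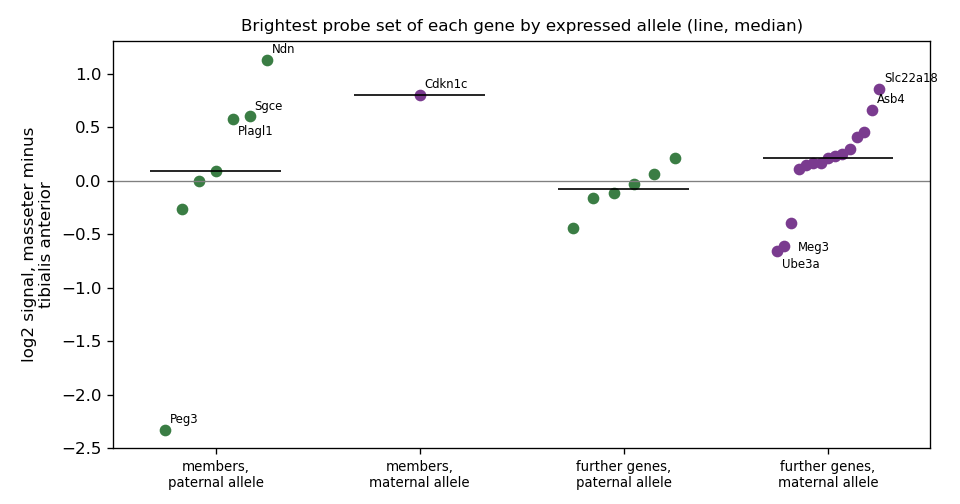
Log2 signal, masseter minus tibialis anterior (y axis), for the brightest kept probe set of each member and further imprinted gene (Gnas, whose expressed copy depends on the promoter, is left out), grouped by the parental copy expressed, with a line at the median. Peg3, at -2.33, lies apart from all others, and the medians of the further genes are -0.08 for the paternal and 0.21 for the maternal class.

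Among the further genes, Ube3a, a ubiquitin ligase imprinted in neurons, had the smallest adjusted p, with signals of 550.4, 526.2 and 413.2 in the masseter and of 903.7, 788.1 and 660.9 in the tibialis anterior. The muscles did not overlap, and the difference was -0.66 ± 0.14 (adjusted p = 0.082). The probe sets of Ube3a disagree, since the other 2 kept ones had 0.72 ± 0.40 and 0.06 ± 0.41. Asb4, a subunit of ubiquitin ligases, had a difference of 0.66 ± 0.22 (adjusted p = 0.246) by its brightest probe set and of -0.22 ± 0.19 by its other kept one. Without tibialis anterior 2 the former was 0.244. Commd1, a regulator of copper transport and NF-kappaB, had 0.45 ± 0.17 (adjusted p = 0.298) and, by its other kept probe set, 0.56 ± 0.19. Slc22a18, Copg2 and Cd81 had 0.86, 0.41 and -0.40, with adjusted p-values of 0.435, 0.527 and 0.546. These values moved with single arrays, since Slc22a18 was 0.266 and Copg2 0.246 without tibialis anterior 2, and Cd81 was -0.173 without masseter 3.

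The non-coding RNA Meg3 is the maternally expressed partner of Dlk1 in the same imprinted region. Its brightest probe set had signals of 365.2, 395.5 and 398.3 in the masseter and of 564.9, 532.2 and 683.1 in the tibialis anterior, a separation of the muscles with a difference of -0.61 ± 0.15 (adjusted p = 0.123). Of the 34 kept probe sets of the further genes, 1 was past the threshold, also of Meg3, at -1.15 ± 0.21 (1452183_a_at, adjusted p = 0.0488). It also passed in 3 of 15 alternatives, and not without the pairing of samples (adjusted p = 0.193). The remaining 2 kept probe sets of Meg3 had differences of -0.32 and -0.35 and did not pass.

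Genes of growth-factor signalling in the imprinted network did not pass the threshold. Igf2, the paternally expressed growth factor, had means of 176 and 180 (-0.03 ± 0.18, adjusted p = 0.966). Igf2r, the receptor that clears it, had 143 and 122 (0.23 ± 0.20, adjusted p = 0.702), and Grb10, an adaptor that dampens insulin signalling, had 482 and 447 (0.11 ± 0.15, adjusted p = 0.826). The other kept probe set of Igf2r had 0.53 ± 0.25 without overlap between the muscles. That of Grb10 had -0.72 ± 0.33, lower in the masseter in each pair and opposite to the brightest one. Dcn, a matrix proteoglycan, had 3793 and 3391 (0.16 ± 0.16, adjusted p = 0.743). Zim1 and Usp29, the neighbours of Peg3, were under the filter level, and so was Mkrn3 near Ndn. Magel2, the other MAGE-family neighbour of Ndn, named here after its values were seen, had a difference of -0.44 ± 0.31 (adjusted p = 0.624), opposite in sign to Ndn.

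By Pearson correlation of log2 signal over the 6 arrays, the genes most like Peg3 1433924_at were Car3 (0.997), Itgb5 (0.992), Polr3k (0.992), Pnpla7 (0.990) and Cxcl14 (0.989), out of 12493 probe sets of other genes. Car3, a carbonic anhydrase known from slow muscle and fat, had signals of 4799.1, 3666.9 and 3511.1 in the masseter and of 17841.1, 13741.0 and 12891.4 in the limb muscle. As with Peg3, sample 1 was the highest within each muscle. The genes most like Ndn 1435383_x_at were Rfc2 (0.990), Tmem168 (0.986), Prkcz (0.985), Slc25a37 (0.984) and Ahctf1 (0.983). With 6 arrays in 2 muscles, such values follow largely from the difference between the muscles, which these genes share, and 85 and 70 probe sets had a correlation above 0.95 with Peg3 and with Ndn.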

How the data were processed

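Each deposited value is a linear signal intensity of a probe set, made by the authors with MAS5 and GCOS per the submitters' processing notes, in versions and with settings not given in the sources used. Probe sets were named by the platform annotation, checked by gene identifier against RefSeq, and only single symbols were used. Signals were floored at 1 before taking log2. The 64 control probe sets were left out and those with a mean log2 signal under the 40th percentile removed, which left 13576. The comparison used limma 3.58.1 under R 4.3.3 (eBayes with trend), two-sided, with the sample number as a block because the design text describes paired comparisons, and Benjamini-Hochberg adjustment over all 13576. The procedure was tested on simulated data.

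Correlations of same-numbered samples' deviations from their muscle means were 0.0392, 0.152 and 0.101, and no label says that a number marks 1 mouse, so the pairing rests on the design text. Whether a muscle's samples are from separate mice is not stated, so p-values measure the spread between these samples. The number of arrays limits precision. The members, gene lists, tests and rules for naming genes were chosen with earlier results of these data known. Genes were named as members; of the further genes those past the threshold and then the smallest adjusted p up to 6 in all, always Igf2, Igf2r, Grb10, Meg3, Dcn, Peg10, Zim1 and Usp29; and by the 5 highest correlations with Peg3 and with Ndn. Marker lists of endothelium, immune cells, nerve and smooth muscle had 0 of 7, 0 of 6, 0 of 4 and 0 of 6 kept genes past the threshold, and the salivary list 2 of 6, both higher in the masseter. Alternatives covered pairing, filter, offset, scaling, variance trend, SAM and samples left out.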

Additional observations from a re-analysis of the deposited data

How the results depend on the processing

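Without the replicate block, 3 member probe sets and 138 of all probe sets passed, and paired SAM gave 3 and 68. With eBayes without trend these were 1 and 13. Leaving out samples gave 1 to 5 member probe sets and 45 to 173 in all; fits without a single array are unpaired. Peg3 1433924_at passed in all 15 alternatives, from -2.53 to -2.05. Peg3 1417355_at passed in 8 of 14, and the 3 Ndn probe sets in 9 (1437853_x_at), 6 (1455792_x_at) and 6 (1435383_x_at) of 15. Cdkn1c passed in 1 of 15, without replicate 1. All kept Peg3 and Ndn probe sets kept their direction in every alternative that gave a value. The members were chosen on this contrast, so their counts and directions here describe the settings and add no support. Of the further genes, 0 passed on brightest probe sets under each alternative run for them. Directions near 0 turned: Mest was -0.042 with quantile normalization. With samples left out, Mest ran from -0.261 to 0.185, Dlk1 from -0.467 to 0.06, Impact from -0.176 to 0.254, Igf2 from -0.133 to 0.058, Dcn from -0.055 to 0.313 and Igf2r from -0.019 to 0.383. The cause of these shifts was not tested, and fits with samples left out also rest on fewer samples. Signals under the filter level lie near background, which limits 6 of the 19 member probe sets. With the 3' to 5' ratios on the log2 scale, the exact permutation p-values were 0.1 for Gapdh and 0.3 for Actb.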
